A study of Rattus norvegicus with 8 samples.

Results

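The 9 genes described here (Hmox1, Fth1, Ftl1, Slc7a11, Gclc, Gsta4, Gstp1, Nqo1 and Me1) are targets of the transcription factor NRF2 that handle haem, iron, glutathione, quinones and NADPH. They were chosen by name, with earlier results of these data known. All 12 array probes whose RefSeq accession maps to one of the 9 symbols were read. All 9 were among the 22459 genes and accessions tested, 12944 of which had a symbol. The cells were neurons grown from cortex and hippocampus taken from Sprague Dawley rats at embryonic day 18 (E18), obtained from a commercial tissue supplier and kept for 7 days in vitro before treatment. The 4 treatments were each compared with vehicle on 2 arrays: CAT-SKL alone, ADDL alone, CAT-SKL and then ADDL (CAT-SKL+ADDL), and ADDL and then CAT-SKL (ADDL+CAT-SKL), with each agent at 1 µM for 24 h. ADDL are soluble oligomers of amyloid-beta, and CAT-SKL is a form of the hydrogen peroxide-degrading enzyme catalase that carries a peroxisomal targeting signal. The order within a combined name was read as the order of treatment. The purpose stated for the study was to find genes whose expression changed under ADDL with or without this antioxidant.

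NRF2, encoded by Nfe2l2, is held at a low level by KEAP1, which directs it to degradation. Oxidants and electrophiles modify KEAP1, NRF2 then accumulates, pairs with a small MAF protein and binds antioxidant response elements in its target genes, while BACH1 competes for the same elements and is released by haem. In brain tissue, NRF2 and many of its targets are known to be more active in astrocytes than in neurons, so the levels of glial marker genes were read beside them.

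Each array set treated RNA in Cy5 against vehicle RNA in Cy3, and a value below is the log2 ratio of treated over vehicle. There was no dye swap, so a dye effect of a probe and an effect shared by all treatments cannot be told apart. In Cy5, 73.3% to 81.0% of the probes stood well above background, and in Cy3 71.5% to 77.4% did. Array ADDL+CAT-SKL 2 had the lowest of these shares in Cy5 and the lowest median Cy5 signal (87.5, against up to 127.5). The SD of the noise between duplicate spots was 0.0944 to 0.116 in array pairs with this array, against 0.0778 to 0.0888 in the other pairs. The number of arrays limits the precision. The difference between the CAT-SKL+ADDL arrays was no larger than that between duplicate spots on 1 array: over probes, their differences at the first and the second spot correlated at r = 0.00719, against 0.291 to 0.709 for the other 27 pairs of arrays. Their mean was used as 1 sample, so 7 samples entered each fit. The single treatments lay in one row of the slide and the sequential ones in the other, so the row, the longer total exposure and the sequence of agents cannot be told apart. The labelled cell type was checked on 14 neuronal markers, all 14 well above background in the vehicle channel of all 8 arrays. All 15 measured astrocyte markers were too.

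For 6 of the 9 genes a RefSeq promoter window was at hand (assembly GRCr8, 250 bases before to 50 after the gene start, 300 in all); Hmox1, Fth1 and Ftl1 had none. The windows were searched on both strands for the core of the antioxidant response element, TGACNNNGC. It occurred in 2 of the 6 windows, those of Gstp1 and Me1, against 12.06% of all 33469 windows and 14 of 57 windows of listed NRF2 targets. The 2 windows are printed because they hold a match to the core of the element that the common factor of these genes binds. Binding was not measured. Capitals mark the match. The match starts 61 bases before the gene start in Gstp1 (chr1:210769656-210769955, minus strand) and 167 bases before it in Me1 (chr8:96540195-96540494, minus strand).
Gstp1: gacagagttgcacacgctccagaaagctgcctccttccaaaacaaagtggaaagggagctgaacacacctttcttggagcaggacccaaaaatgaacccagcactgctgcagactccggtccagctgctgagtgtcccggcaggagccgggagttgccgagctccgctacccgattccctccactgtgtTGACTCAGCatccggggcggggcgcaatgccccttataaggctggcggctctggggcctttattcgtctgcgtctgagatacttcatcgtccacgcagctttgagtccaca
Me1: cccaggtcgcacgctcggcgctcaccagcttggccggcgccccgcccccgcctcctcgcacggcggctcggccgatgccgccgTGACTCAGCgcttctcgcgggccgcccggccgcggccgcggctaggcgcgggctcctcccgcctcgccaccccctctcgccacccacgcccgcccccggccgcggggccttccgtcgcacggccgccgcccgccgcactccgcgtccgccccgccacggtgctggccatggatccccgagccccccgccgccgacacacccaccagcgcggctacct
Both matches read TGACTCAGC. Their first 7 bases also spell the AP-1 motif TGANTCA, which 7.329% of all windows held, so the letters alone do not separate one element from the other. Gclc, Gsta4, Nqo1 and Slc7a11 had no match in their windows. Windows of this size leave out distal elements. The fitted ratios of Gstp1 and Me1 were the lowest of the 9 after CAT-SKL (0.09 and 0.17), whereas after ADDL Gstp1 was the lowest (-0.07) and Me1 the fifth (0.20).

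Across the 8 arrays, 66 of the 72 ratios of the 9 genes were above 0 (91.67%), against 49.34% of the ratios of all genes. Because the 9 were chosen with earlier results of these data known, this and the shares below describe them and do not test them as a set. Hmox1, Slc7a11, Gclc, Fth1 and Me1 were above 0 on all 8 arrays, which held for 7.47% of all genes tested. Both arrays of a group were above 0 for 9 of the 9 genes after CAT-SKL, 7 after ADDL, 9 after CAT-SKL+ADDL and 6 after ADDL+CAT-SKL, against 32.4%, 32.1%, 36.2% and 30.1% of all genes. None of the 9 passed an adjusted p of 0.05 in any comparison, so each value below is a measured difference and not a call. After CAT-SKL, 0 of 9 passed while 2.62% of all genes did. After ADDL and after CAT-SKL+ADDL, 0 of 9 and 0% of all genes passed. After ADDL+CAT-SKL, 0 of 9 and 0.454% of all genes passed. At an unadjusted p under 0.05, 7, 6, 5 and 3 of the 9 genes were higher than vehicle in CAT-SKL, ADDL, CAT-SKL+ADDL and ADDL+CAT-SKL, against 9.6%, 9.83%, 5.32% and 8.07% of all genes.

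**Figure D1:**
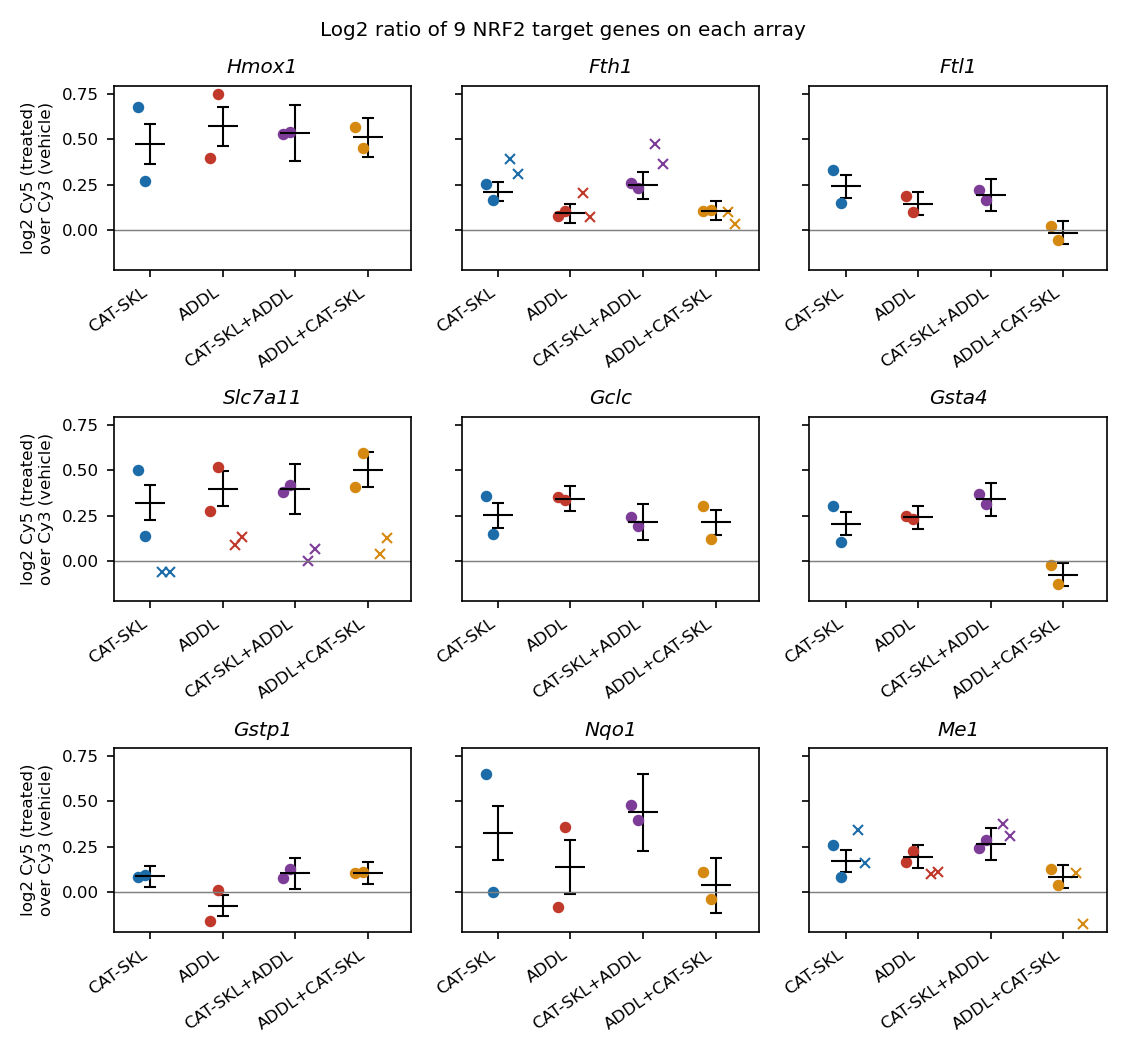
Log2 ratio of treated (Cy5) over vehicle (Cy3) for the 9 genes in each treatment; filled points are single arrays of the probe that represents the gene, crosses are those of a second probe, and bars give the fitted mean and its standard error. Hmox1 and Slc7a11 lie above 0 on all 8 arrays, and Gsta4 lies below 0 only on the 2 ADDL+CAT-SKL arrays.

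Hmox1, the inducible haem oxygenase that opens haem to biliverdin, carbon monoxide and iron, had the highest fitted ratio of the 9 in all 4 treatments. Its log2 ratio was 0.68 and 0.27 after CAT-SKL, 0.40 and 0.75 after ADDL, 0.53 and 0.54 after CAT-SKL+ADDL, and 0.57 and 0.45 after ADDL+CAT-SKL. The lowest array of 8 was thus CAT-SKL 2, the highest was ADDL 2, and the groups overlapped in all pairs of treatments. The fitted change was 0.48 ± 0.11 (SE; 1.39-fold, adjusted p = 0.0594) after CAT-SKL, 0.57 ± 0.11 (1.49-fold, 0.0723) after ADDL, 0.54 ± 0.15 (1.45-fold, 0.250) after CAT-SKL+ADDL and 0.51 ± 0.11 (1.42-fold, 0.0807) after ADDL+CAT-SKL. These changes stood at the 99.4th, 99.6th, 99.3rd and 99.9th percentile of all genes tested. Counting the CAT-SKL+ADDL arrays as separate samples brought the adjusted p to 0.0247, 0.0247, 0.0127 and 0.0316, so the call on Hmox1 depended on that choice in all 4 treatments.

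Ferritin stores the iron that haem breakdown releases, with Fth1 as the heavy chain that oxidises it and Ftl1 as the light chain. The main Fth1 probe gave 0.26 and 0.17 after CAT-SKL, 0.08 and 0.11 after ADDL, 0.26 and 0.23 after CAT-SKL+ADDL, and 0.10 and 0.11 after ADDL+CAT-SKL. The 2 groups that met CAT-SKL first or alone did not overlap with the ADDL and ADDL+CAT-SKL arrays. The difference CAT-SKL minus ADDL, however, was 0.12 ± 0.07 (adjusted p = 0.704). How often groups separate in this way over all genes was not counted, and the CAT-SKL+ADDL arrays were not taken as separate samples. Such separations, here and for the genes below, therefore only describe the arrays. Fitted changes were 0.21 ± 0.05 (adjusted p = 0.0722), 0.09 ± 0.05 (0.391), 0.25 ± 0.07 (0.264) and 0.11 ± 0.05 (0.338) in the same order. A second Fth1 probe also had its CAT-SKL and CAT-SKL+ADDL arrays above the 4 others, with 0.39 and 0.31 after CAT-SKL, 0.21 and 0.07 after ADDL, 0.47 and 0.37 after CAT-SKL+ADDL, and 0.10 and 0.04 after ADDL+CAT-SKL. Where every probe was fitted on its own, this second probe passed after CAT-SKL (0.35 ± 0.06, adjusted p = 0.0377).
Ftl1 gave 0.33 and 0.15 after CAT-SKL, 0.19 and 0.10 after ADDL, 0.22 and 0.17 after CAT-SKL+ADDL, and 0.03 and -0.05 after ADDL+CAT-SKL. Its ADDL+CAT-SKL arrays lay below all 6 others. Against ADDL alone that difference was -0.16 ± 0.09 (adjusted p = 0.644), and the fitted change was 0.24 ± 0.06 after CAT-SKL (adjusted p = 0.0805). The size of the ferritin changes depended on how the dyes were balanced: with a median centring of each array and no loess, Ftl1 after CAT-SKL came to 0.56 (adjusted p = 0.000666) and Fth1 to 0.50 (adjusted p = 0.00153), while the deposited ratios put Ftl1 after ADDL at -0.00304.

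**Figure D2:**
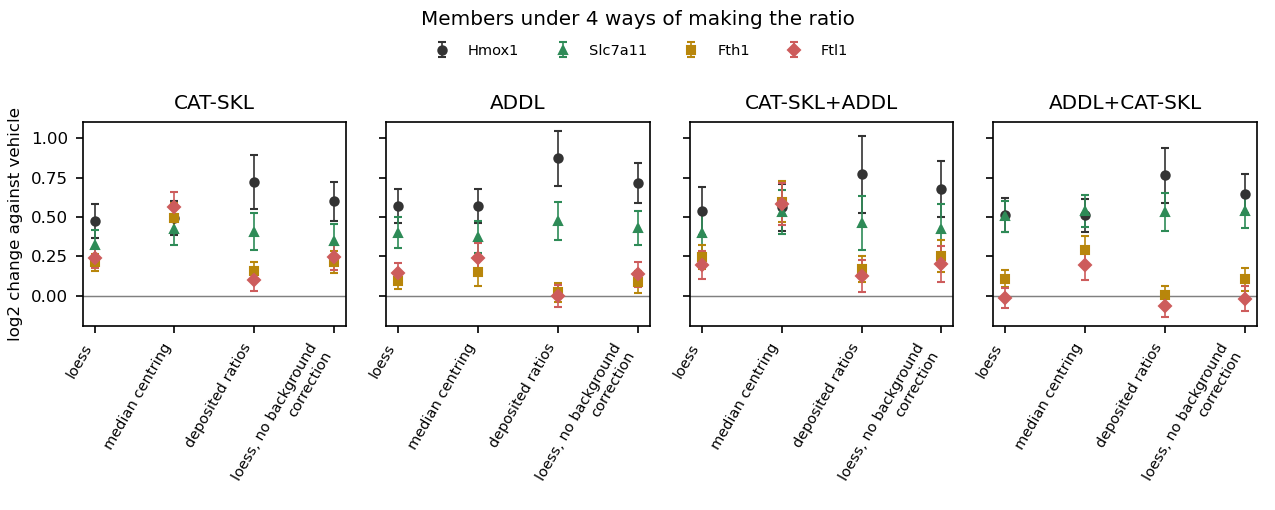
Fitted log2 change against vehicle (points) with its standard error (bars) for Hmox1, Slc7a11, Fth1 and Ftl1 under 4 ways of making the ratio. Hmox1 and Slc7a11 lie above 0 in each treatment under each of the 4, whereas Ftl1 after CAT-SKL moves from 0.24 with loess to 0.56 with median centring.

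Slc7a11 is the light chain of the cystine-glutamate exchanger that brings in the precursor of glutathione, and Gclc is the catalytic subunit of the ligase that performs its rate-limiting step. Slc7a11 gave 0.50 and 0.14 after CAT-SKL, 0.28 and 0.52 after ADDL, 0.38 and 0.42 after CAT-SKL+ADDL, and 0.41 and 0.60 after ADDL+CAT-SKL. All 8 arrays were above 0, CAT-SKL 2 was again the lowest, and the treatments overlapped in all pairs. The fitted change was 0.32 ± 0.10 (adjusted p = 0.111) after CAT-SKL, 0.40 ± 0.10 (0.0960) after ADDL, 0.40 ± 0.14 (0.317) after CAT-SKL+ADDL and 0.50 ± 0.10 (0.0705) after ADDL+CAT-SKL. A second, dim Slc7a11 probe, with vehicle signals of 37.25 to 43.75 over a local background of 26.5 to 30, disagreed: it gave ratios between -0.06 and 0.13, 5 of 8 above 0. Which probe reflects the transcript was not tested.
Gclc gave 0.36 and 0.15 after CAT-SKL, 0.35 and 0.34 after ADDL, 0.24 and 0.19 after CAT-SKL+ADDL, and 0.30 and 0.12 after ADDL+CAT-SKL. The ADDL arrays lay above those of both sequential treatments and overlapped with those of CAT-SKL. Fitted changes were 0.25 ± 0.07 (adjusted p = 0.0906), 0.34 ± 0.07 (0.0738), 0.22 ± 0.10 (0.459) and 0.21 ± 0.07 (0.173). The modifier subunit Gclm was not tested, since its probe was well above background on 0 of 8 arrays in vehicle and on 1 in the treated channel. The filter asked for 2 or more arrays in either channel.

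Gsta4 and Gstp1 are glutathione transferases, the first known for conjugating the lipid peroxidation product hydroxynonenal. Gsta4 gave 0.31 and 0.11 after CAT-SKL, 0.25 and 0.23 after ADDL, 0.37 and 0.31 after CAT-SKL+ADDL, but -0.02 and -0.13 after ADDL+CAT-SKL. The ADDL+CAT-SKL arrays lay below 0 and below the 6 others, with no overlap. ADDL+CAT-SKL minus ADDL was -0.31 ± 0.09 (unadjusted p = 0.00848, adjusted p = 0.573), and CAT-SKL+ADDL minus ADDL+CAT-SKL was 0.42 ± 0.11 (unadjusted p = 0.00565, adjusted p = 0.857). These were the smallest p-values of the 9 genes in any difference between treatments, and 0 of 9 genes and 0% of all genes passed in those 4 comparisons.
Gstp1 gave 0.08 and 0.10 after CAT-SKL, -0.16 and 0.01 after ADDL, 0.08 and 0.13 after CAT-SKL+ADDL, and 0.10 and 0.11 after ADDL+CAT-SKL. The ADDL arrays lay below all 6 others. ADDL was the one treatment with a fitted change below 0 (-0.07 ± 0.06, adjusted p = 0.564), and the other 3 lay between 0.09 and 0.11.

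Nqo1 reduces quinones without forming semiquinone radicals, and Me1, the cytosolic malic enzyme, makes NADPH. Nqo1 was the least even of the 9: 0.65 and 0.00 after CAT-SKL, -0.08 and 0.36 after ADDL, 0.48 and 0.40 after CAT-SKL+ADDL, and 0.11 and -0.04 after ADDL+CAT-SKL. Its 2 arrays lay far apart within CAT-SKL and within ADDL, its treated level had the largest SD of the 9 over the 8 arrays (0.260), and its fitted changes (0.33 ± 0.15, 0.14 ± 0.15, 0.44 ± 0.21 and 0.04 ± 0.15) had adjusted p-values of 0.261 to 0.928. Its vehicle signal was 53.75 to 63, low on these arrays.
Me1 gave 0.26 and 0.08 after CAT-SKL, 0.16 and 0.23 after ADDL, 0.24 and 0.29 after CAT-SKL+ADDL, and 0.13 and 0.04 after ADDL+CAT-SKL. The CAT-SKL+ADDL arrays lay above those of ADDL and of ADDL+CAT-SKL. Fitted changes were 0.17 ± 0.06, 0.20 ± 0.06, 0.27 ± 0.09 and 0.09 ± 0.06, with adjusted p-values of 0.151 to 0.537. A second Me1 probe gave 0.34 and 0.16, 0.10 and 0.11, 0.38 and 0.31, and 0.11 and -0.17 in the same order, so that only its ADDL+CAT-SKL arrays differed in sign.

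The addition of CAT-SKL to ADDL moved Hmox1 and Slc7a11 by less than the standard error of the difference in these data. This did not hold for Gclc and Gsta4. For Hmox1, CAT-SKL+ADDL minus ADDL was -0.04 (95% interval -0.47 to 0.40) and ADDL+CAT-SKL minus ADDL was -0.06 (-0.41 to 0.29). For Slc7a11 the same differences were 0.00 (-0.39 to 0.39) and 0.10 (-0.21 to 0.42). For Gclc they were -0.13 (-0.41 to 0.15) and -0.13 (-0.36 to 0.10), with standard errors of 0.12 and 0.10. For Gsta4 they were 0.10 (-0.15 to 0.36) and -0.31 (-0.52 to -0.10), with standard errors of 0.11 and 0.09, and neither passed after adjustment. Intervals of this width do not show that the treatments acted alike. CAT-SKL minus ADDL was -0.10 (-0.45 to 0.26) for Hmox1 and -0.08 (-0.39 to 0.24) for Slc7a11.

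Read by channel, the vehicle level of each of the 9 genes was steadier over the 8 arrays than its treated level. The SD of the log2 vehicle level was 0.0168 to 0.0929 over the 9 genes and that of the treated level 0.0826 to 0.260, with vehicle the lower for 9 of 9. The median gene tested had 0.0596 in vehicle and 0.0934 in the treated channel. The share of all genes with a lower SD in vehicle was not counted. The vehicle channel held the same condition on every array, whereas the treated channel held different treatments. The steadier vehicle level therefore describes the arrays and cannot set the 9 genes apart from other genes. For Hmox1 the vehicle levels spanned 0.0982 and the treated levels 0.521 on the log2 scale. The labels do not state whether the vehicle RNA was 1 pool.

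**Figure D3:**
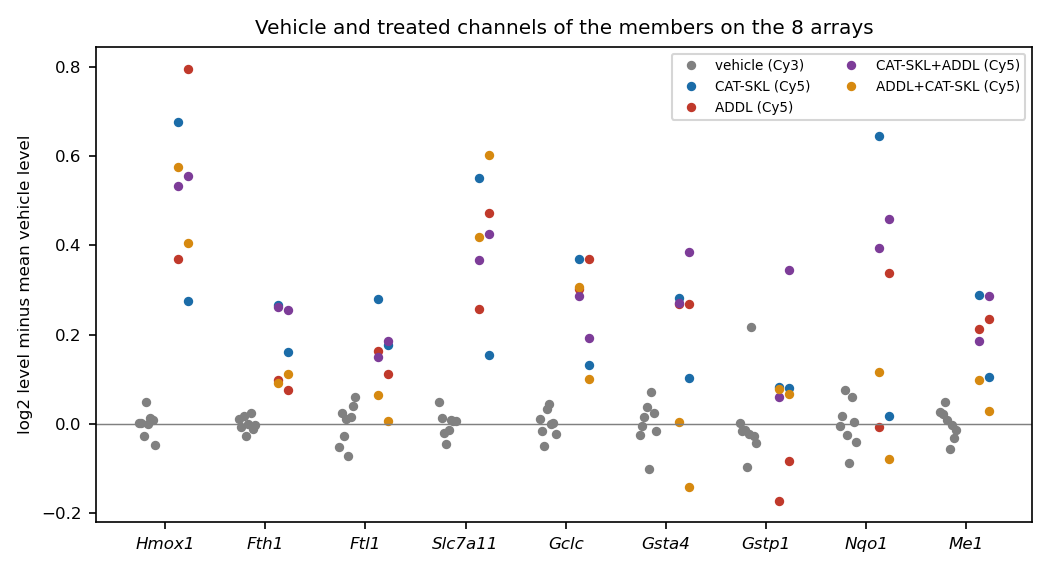
Log2 level of the 9 genes in vehicle (grey, Cy3) and treated (coloured by treatment, Cy5) channels of the 8 arrays, each minus the mean vehicle level of the gene. The treated points of Hmox1, Slc7a11 and Gclc all lie above the vehicle points, and 1 vehicle point of Gstp1 (array CAT-SKL+ADDL 2) stands above its 7 others. The unprocessed Cy3 signal of Gstp1 on that array was the lowest of the 8.

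The wider set of NRF2 targets gave smaller values than the 9 genes. Of 61 listed targets 60 had a probe and 58 were tested. The 49 tested targets outside the 9 had median log2 changes of 0.03 after CAT-SKL, 0.02 after ADDL, 0.03 after CAT-SKL+ADDL and 0.00 after ADDL+CAT-SKL, beside medians of 0.24, 0.20, 0.27 and 0.11 for the 9 and of -0.00 in each treatment for all genes. After CAT-SKL, 1 of the 49 rose and 1 fell. Ugt1a6, which glucuronidates phenols, rose by 0.34 ± 0.06 (adjusted p = 0.0381), with 0.41 and 0.27 on its arrays. Trib3, a pseudokinase that also answers to amino acid stress, fell by 0.28 ± 0.05 (adjusted p = 0.0420), with -0.28 and -0.29. Under 17 alternative settings Ugt1a6 kept its call in 7 and Trib3 in 6. Each had the same sign in 17, but many of these settings cannot move the fitted change. In the other 3 treatments 0 of the 49 passed.
Genes of the same branches lay on both sides of 0. After ADDL, Slc40a1, the iron exporter ferroportin, was at -0.43 ± 0.12 (adjusted p = 0.117), Srxn1, which repairs peroxiredoxins, at -0.32 ± 0.06 (0.0727), and the transferase Gsto1 at -0.33 (0.0770). After ADDL+CAT-SKL, Slc40a1 was at 0.34 and Srxn1 at 0.20, with both arrays above 0 for each. ADDL+CAT-SKL minus ADDL was 0.77 ± 0.17 for Slc40a1 and 0.52 ± 0.09 for Srxn1 (adjusted p = 0.573 for both).
In glutathione metabolism, Gsr, the reductase that regenerates glutathione, lay at -0.15 to -0.20 in all 4 treatments (adjusted p of 0.195 to 0.623), on the other side of 0 from Slc7a11 and Gclc. Among transferases, Gsta1 was at 0.81 after CAT-SKL (adjusted p = 0.0921) and 0.81 after ADDL (0.121). The microsomal transferase Mgst1 was at 0.37 after CAT-SKL (0.0708), but its probe was dim, well above background in vehicle on 4 of 8 arrays. For NADPH, the pentose phosphate enzymes Taldo1 and Tkt ranged from -0.21 to 0.15.

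Of the regulators, Nfe2l2 itself gave 0.87 and 0.21 after CAT-SKL, 0.28 and 0.74 after ADDL, 0.65 and 0.66 after CAT-SKL+ADDL, and 0.25 and 0.11 after ADDL+CAT-SKL. All 8 arrays were above 0, with fitted changes of 0.54 ± 0.15 (adjusted p = 0.0956), 0.51 ± 0.15 (0.137), 0.66 (0.296) and 0.18 (0.601). Nfe2l2 was high and low on much the same arrays as the astrocyte marker median described below. That median was 0.75 on CAT-SKL 1 and 0.78 on ADDL 2, against 0.14 on CAT-SKL 2 and -0.02 on ADDL+CAT-SKL 2. The relation of Nfe2l2 to glial markers was not tested. Keap1 lay between -0.14 and -0.06 and Bach1 between -0.13 and 0.15, and 0 of the 9 regulators tested passed in any treatment. Outside the NRF2 lists, 1 of 12 haem and iron genes passed: Alas1, the first enzyme of haem synthesis, fell by 0.38 ± 0.06 after ADDL+CAT-SKL (adjusted p = 0.0491), with -0.44 and -0.31 on its arrays, beside 0.454% of all genes called in that comparison. The call on Alas1 held in 4 of 17 alternative settings and was lost in 13 (adjusted p from 0.0132 to 0.319), including when either CAT-SKL or either ADDL array was left out. On the ADDL+CAT-SKL arrays Hmox1 was at 0.57 and 0.45.

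**Figure D4:**
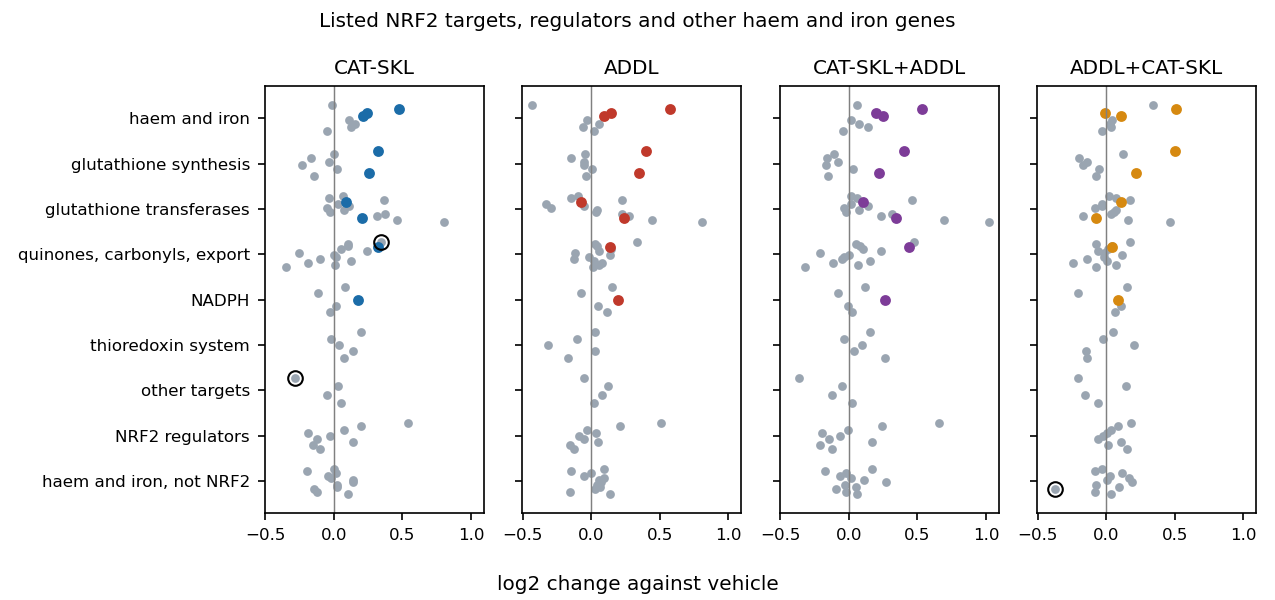
Fitted log2 change against vehicle for listed NRF2 targets by role, for regulators of NRF2 and for other haem and iron genes; large coloured points are the 9 genes, small grey points the other listed genes, and black rings mark an adjusted p below 0.05. The rings are Ugt1a6 and Trib3 after CAT-SKL and Alas1 after ADDL+CAT-SKL.

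Glial marker genes varied between the same arrays. The median log2 ratio of the 15 astrocyte markers was 0.75 and 0.14 after CAT-SKL, 0.32 and 0.78 after ADDL, 0.58 and 0.52 after CAT-SKL+ADDL, and 0.24 and -0.02 after ADDL+CAT-SKL. ADDL 2 was the highest array, as for Hmox1, but the lowest was ADDL+CAT-SKL 2, where Hmox1 was at 0.45, above its 0.27 on CAT-SKL 2 and 0.40 on ADDL 1. The 14 oligodendrocyte lineage markers had medians from -0.03 to 0.56, the 15 microglial ones from -0.11 to 0.13 and the 14 neuronal ones from -0.07 to 0.08. In a bulk culture, more cells of a type and more RNA per cell cannot be told apart. Itgam, Ptprc and Irf8, markers of microglia and other leukocytes, were well above background in vehicle on 0 of 8 arrays. No astrocyte marker passed in any treatment (after CAT-SKL, S100b 1.06, adjusted p = 0.0529; Gja1 0.96, adjusted p = 0.0614). After CAT-SKL, where 2.62% of all genes passed, 3 of 14 oligodendrocyte lineage markers rose (Pdgfra 1.19, adjusted p = 0.0401; Sox10 0.57, adjusted p = 0.0422; Olig2 0.50, adjusted p = 0.0393), as did 1 of 15 microglial markers (Fcer1g 0.57, adjusted p = 0.0261), and none of either list fell. In the other 3 treatments 0 passed in both lists. On array CAT-SKL 2, 8 of the 14 oligodendrocyte lineage markers were above 0 (median 0.05, lowest -0.78) and 9 of the 15 microglial ones (median 0.04). These 4 calls held in 8, 8, 7 and 14 of 17 alternative settings.
Markers of dividing cells and of neurons were read on the same arrays. The median of the 7 proliferation markers was 0.38 and 0.15 after CAT-SKL, 0.37 and 0.46 after ADDL, 0.46 and 0.51 after CAT-SKL+ADDL, and 0.28 and 0.07 after ADDL+CAT-SKL. Of these 7, 1 rose after CAT-SKL, Birc5 (survivin, which acts in cell division; 0.37, adjusted p = 0.0420, a call held in 7 of 17 alternative settings), and 0 passed in the other treatments. Rrm2, a subunit of ribonucleotide reductase, lay between 0.62 and 1.08 in the 4 treatments without passing. Of the 14 neuronal markers, Gad1, which makes GABA, rose by 0.56 after CAT-SKL (adjusted p = 0.0430), and Slc17a6, a vesicular glutamate transporter, rose by 0.41 after ADDL+CAT-SKL (adjusted p = 0.0446). Those calls held in 7 and 6 of 17 settings. The part of any of these lists in the values of the 9 genes was not tested.

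Over the 7 samples, Pearson correlations with the astrocyte median were 0.92 for Me1, 0.85 for Nqo1, 0.80 for Hmox1, 0.79 for Gsta4, 0.73 for Gclc, 0.66 for Ftl1, 0.40 for Fth1, 0.27 for Slc7a11 and -0.15 for Gstp1. The median of the 9 was 0.73, against 0.01 over all genes, and 5 of 9 reached 0.7, against 8.35% of all genes. Both measures come from the same arrays and share their vehicle channel. The 9 genes and 3 glial lists gave 27 relations. In an exact permutation test that counts orderings with an absolute r at least as large, 9 of 27 had an unadjusted p below 0.05 (4 with astrocyte, 5 with oligodendrocyte lineage and 0 with microglial markers), and 0 of 27 passed after Benjamini-Hochberg adjustment. The result turned on how both tails of the test were counted: with the smaller tail doubled instead, the definition used by scipy, 4 of 27 passed. Those were Me1 with astrocyte markers and Me1, Ftl1 and Gsta4 with oligodendrocyte lineage markers. Spearman correlations gave 0 of 27 by either definition, with 8 of 27 below 0.05 unadjusted.
For Me1 with astrocyte markers, the exact p was 0.00595 (adjusted 0.102) by absolute r and 0.00556 (adjusted 0.0482) by the doubled tail, rho was 0.86, and r was 0.99 without the 2 samples farthest from the median. For Hmox1 the exact p was 0.0337 (adjusted 0.124), and r was 0.38 without those 2 samples, ADDL 2 and CAT-SKL 1, so the relation rests on them. For Slc7a11, r went from 0.27 to -0.27. With oligodendrocyte lineage markers r was 0.89 for Me1, 0.85 for Gsta4, 0.83 for Ftl1, 0.82 for Nqo1 and 0.82 for Fth1. It was 0.42 for Gclc, 0.41 for Hmox1, 0.10 for Slc7a11 and 0.005 for Gstp1. Thus 5 of 9 reached 0.7, against 8.25% of all genes. Without the 2 farthest samples, CAT-SKL 1 and CAT-SKL+ADDL, r was 0.84 for Me1, 0.94 for Gsta4, 0.80 for Ftl1, 0.22 for Nqo1 and -0.52 for Fth1. The relations of Nqo1 and Fth1 thus rest on those samples. Within the slide rows, 4 and 3 samples were too few for a correlation.

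**Figure D5:**
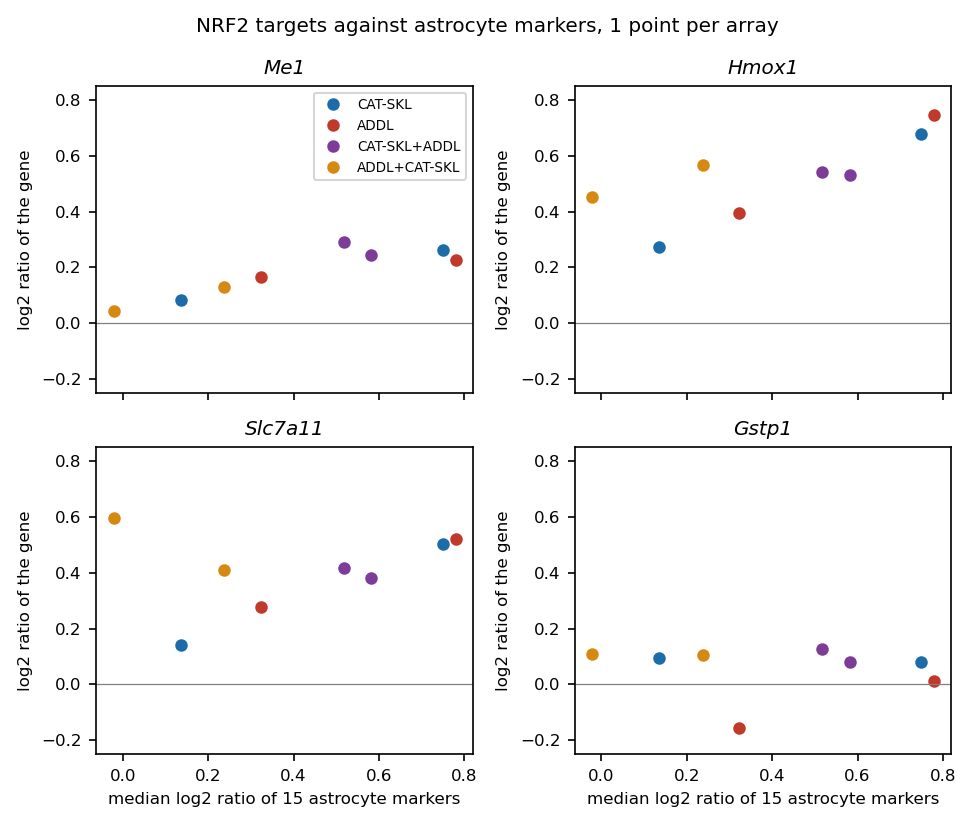
Log2 ratio of Me1, Hmox1, Slc7a11 and Gstp1 on each of the 8 arrays (vertical) against the median log2 ratio of 15 astrocyte markers on the same array (horizontal), coloured by treatment. Me1 is higher on arrays with a higher marker median (r = 0.92 over 7 samples), whereas Slc7a11 is at its highest, 0.60, on the array with the lowest marker median, -0.02.

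The genes whose log2 ratio was most like that of Hmox1 over the 7 samples were Amt (r = 0.97), Ppif (0.96) and Oprl1 (0.96). For Gclc they were Camk2n1 (0.98), Slco1a6 (0.97) and Mfsd6 (0.97), and for Ftl1 they were Ugdh (0.99), Bend5 (0.98) and Arl8a (0.98). Ugdh, which makes the sugar donor for glucuronidation, is itself on the list of NRF2 targets. With 22459 genes and 7 samples, correlations of this size are a description of these arrays.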

How the data were processed

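The 8 two-colour arrays lay on 1 slide. Treated RNA was Cy5 and vehicle RNA Cy3, per the labels. The deposited scanner files hold spot and local background intensity (median pixel brightness) and a log10 ratio that Agilent Feature Extraction 11.5 had background-subtracted and dye-normalised, per the file headers; the software version is from the submitters' processing notes. A deposited series table gave these log10 ratios again, within 0.005.

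From the intensities, background was corrected by normexp (offset 50) and dyes by loess in limma 3.58.1 under R 4.3.3. Control spots had weight 0, and 902 to 1262 outlier spots per array were left out. There were 0 saturated spots. Probes entered the test if either channel was well above background on 2 or more of the 8 arrays, and a gene was read from its brightest probe. Probes were named through RefSeq accessions of GRCr8 (17998 of 30367 matched), and no array coordinates are given, because the design used another build. The promoter windows are RefSeq's.

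The 4 treatments (ratio against 0) and 4 differences between them were fitted with lmFit and eBayes over 7 samples (3 residual degrees of freedom, 5.05 from the prior), with Benjamini-Hochberg adjustment over all 22459 genes and a threshold of 0.05. Such a test against 0 does not include how vehicle cultures vary. The submitters describe the 2 samples per condition as biological replicates. Data were simulated for CAT-SKL against vehicle (22459 genes). At a log2 change of 1, 100 of 100 genes were recovered, and 100 of 100 at 1.5, with 11 false calls. The largest fitted change against vehicle of the genes described here was 0.57 (Hmox1 after ADDL). Recovery at changes of that size or smaller was not tested. Correlations with glial medians had exact permutation p-values, by absolute r; the doubled-tail alternative was added after both had been seen. Replicate numbers did not pair the samples: correlations of replicate differences ran from -0.202 to 0.0784.

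The 9 genes, the lists, the 7-sample count and the tests were chosen with earlier results of these data known. Genes of the NRF2, regulator and haem lists were named if they passed in a comparison, and otherwise up to 4 per list with the smallest p; of each marker list, up to 4 with a small p were named. S100b, Gja1, Rrm2, Gsr, Keap1, Bach1, Tkt and Gclm were named after their values were seen. Alternatives covered normalisation, background, filter, probe choice, samples and arrays left out.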

Additional observations from a re-analysis of the deposited data

Results flagged for a closer look

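Among the vehicle levels of the 9 genes, checked over 8 arrays each, 1 array stood apart in 1 gene. The Gstp1 vehicle level on array CAT-SKL+ADDL 2 was 12.36 (log2), the next highest was 12.14, and the gap was 0.688 of the range, above Dixon's limit for 8 values. Chance alone gives such a gap in about 1 in 20 groups, and 9 were checked. The unprocessed signal went the other way: the mean Cy3 signal of the probe's spots was 3233.5 on that array, the lowest of the 8 (up to 4585.5). Outlier spots were left out of the level but not of this signal, and the cause of the difference was not tested. The ratio of Gstp1 on that array was 0.13 and on the other CAT-SKL+ADDL array 0.08.

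Gsta4 lay above 0 on both arrays of CAT-SKL, ADDL and CAT-SKL+ADDL and below 0 on both arrays of ADDL+CAT-SKL. The differences were 0.279 (CAT-SKL minus ADDL+CAT-SKL), 0.314 (ADDL minus ADDL+CAT-SKL) and 0.415 (CAT-SKL+ADDL minus ADDL+CAT-SKL). The first was not tested. The other 2 had adjusted p-values of 0.573 and 0.857 in limma. The cause was not tested, and the share of all genes with such a separation was not counted. The astrocyte marker median was -0.02 on array ADDL+CAT-SKL 2, where Gsta4 was at -0.13, and 0.24 on ADDL+CAT-SKL 1, where Gsta4 was at -0.02. On CAT-SKL 2 it was 0.14, and Gsta4 was at 0.11.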

How the results depend on the processing

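Hmox1, Slc7a11 and Gclc stayed above 0 in 72 of 72 vehicle comparisons each (0.27 to 0.87, 0.13 to 0.60 and 0.12 to 0.37). These came from the main setting and the 17 alternatives that gave 1 value per gene. With every probe fitted, the second Slc7a11 probe was at -0.06, 0.11, 0.03 and 0.08 after CAT-SKL, ADDL, CAT-SKL+ADDL and ADDL+CAT-SKL. Values of the 9 genes under alternatives numbered 1206. Of these, 1137 kept direction and side of the threshold, 30 came to pass it, and 39 changed sign, none of them called. Many alternatives cannot move a fitted change, such as leaving out an array of a group outside the comparison or counting 8 separate samples. Much of the agreement in sign was therefore fixed in advance. How many of the 9 passed depended on the setting. With the 8 arrays as separate samples it was 4 after CAT-SKL, 3 after ADDL, 5 after CAT-SKL+ADDL and 2 after ADDL+CAT-SKL. With median centring it was 6, 2, 2 and 2. After CAT-SKL it was 1 with probes above background on all 8 arrays, 1 with every probe fitted and 1 with the mean over probes. Leaving out 1 array gave 0 to 1 after ADDL (1, Hmox1, without either CAT-SKL array) and 0 in the other 7 comparisons. With the replicate number as a block, 0 passed in all 8, and 6 genes in all passed after CAT-SKL and 0 after ADDL+CAT-SKL.

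Over all genes, 588 passed after CAT-SKL, 0 after ADDL, 0 after CAT-SKL+ADDL and 102 after ADDL+CAT-SKL. With 8 separate samples the counts were 1820, 975, 2322 and 886, with median centring 1819, 430, 325 and 374, and with deposited ratios 0 in each. Without background correction they were 412, 0, 0 and 0, without the filter 275, 0, 0 and 0, and within the same slide row 226, 0, 11 and 1. Leaving out 1 array gave 2 to 588, 0 to 329, 0 to 5 and 0 to 102. For CAT-SKL the count was 2 with its array 1 left out, 387 with its array 2 left out, 53 with 1 of the ADDL arrays gone (whichever it was) and 226 with 1 of the ADDL+CAT-SKL arrays gone. For ADDL it was 329 on dropping a CAT-SKL array and 3 on dropping ADDL 2. After CAT-SKL+ADDL, 4 passed without either CAT-SKL array and 5 without CAT-SKL+ADDL 1. After ADDL+CAT-SKL, 0 passed without any one CAT-SKL or ADDL array or ADDL+CAT-SKL 1, and 1 without ADDL+CAT-SKL 2.

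The count of genes related to astrocyte markers was 0, and 1 (Me1) with deposited ratios, 1 with the list's mean, 1 with the doubled tail and 0 to 1 without 1 array (1 without ADDL 2 or CAT-SKL+ADDL 2). The r of Gstp1 was 0.12 with median centring and 0.00367 with deposited ratios, and -0.71 to 0.00619 without 1 array. The r of Slc7a11 was -0.27 without the 2 farthest samples and -0.0128 to 0.86 without 1 array.

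Signs also changed as follows, and the cause was not tested. Deposited ratios gave Ftl1 after ADDL -0.00304, Slc7a11 for CAT-SKL+ADDL minus ADDL -0.0114, Fth1 for ADDL+CAT-SKL minus ADDL -0.0194 and Gstp1 for CAT-SKL+ADDL minus ADDL+CAT-SKL 0.0599. Median centring gave Ftl1 after ADDL+CAT-SKL 0.19, Gstp1 for CAT-SKL+ADDL minus ADDL+CAT-SKL 0.13 and Gclc for CAT-SKL+ADDL minus ADDL 0.0580. For CAT-SKL minus ADDL it gave Gclc 0.0522, Slc7a11 0.0483, Me1 0.14 and Gsta4 0.12. Mean probes gave Me1 for CAT-SKL minus ADDL 0.0611, Slc7a11 for CAT-SKL+ADDL minus ADDL -0.0395 and Fth1 for ADDL+CAT-SKL minus ADDL -0.0272. No background correction gave Slc7a11 for CAT-SKL+ADDL minus ADDL -0.00265. Leaving out 1 array spanned 0 for ADDL (Nqo1 -0.0821 to 0.36, Gstp1 -0.16 to 0.0130) and ADDL+CAT-SKL (Nqo1 -0.0371 to 0.11, Ftl1 -0.0527 to 0.0265). It did so for CAT-SKL minus ADDL in Hmox1 (-0.30 to 0.10), Gclc (-0.20 to 0.0124), Slc7a11 (-0.26 to 0.10), Nqo1 (-0.14 to 0.51), Me1 (-0.11 to 0.0669) and Gsta4 (-0.13 to 0.0644). For CAT-SKL+ADDL minus ADDL the ranges were -0.21 to 0.14 (Hmox1) and -0.12 to 0.12 (Slc7a11). For ADDL+CAT-SKL minus ADDL they were -0.24 to 0.11 (Hmox1), -0.0163 to 0.23 (Slc7a11) and -0.32 to 0.12 (Nqo1). For CAT-SKL+ADDL minus ADDL+CAT-SKL they were -0.0312 to 0.0828 (Hmox1), -0.0864 to 0.0954 (Gclc) and -0.0253 to 0.0193 (Gstp1).

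The arrays' number and the single dye orientation limit these values, and Nqo1, Fcer1g, Mgst1 and the second Slc7a11 probe were dim. Gsta1 and Nfe2l2 were little brighter than Nqo1, with median vehicle signals of 66.7 and 67.6 against 57.4.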
